A study of Mus musculus with 12 samples.

Results

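The expression of 10 genes of the immediate early response was followed in conditionally immortalized proximal tubule (PT) cells of the mouse: the AP-1 genes Fos, Fosb, Fosl1, Fosl2, Jun, Junb and Jund, with Egr1, Ier3 and Myc. They were taken by name, each by the annotated transcript with the highest total count, and make up 10 of the 25514 genes in the count tables. The cells came from male mice that carried the Immorto transgene, a heat-labile T antigen (H2ts6 in the labels), and floxed alleles of Tgfbr2, the gene of the type II TGF-β receptor TβRII. Cre from an adenovirus was used in culture to make TβRII-/- PT cells (labelled H2ts6;Tgfbr2-/-) out of TβRII flox/flox PT cells (labelled H2ts6;Tgfbr2fl/fl and called floxed cells here), so every cell shares the T antigen and each genotype is 1 cell line. All cells were grown at 33 °C with interferon-γ and held at 37 °C for 5 days before the experiment. By the study's methods, interferon-γ was taken away on the move to 37 °C. Each line was sequenced untreated, in complete medium, and after 24 h of H2O2 in serum-free medium, which gave 4 groups of 3 libraries. The labels give the dose as 200 mM and the study's methods as 200 μM, and the methods add a serum starvation of 24 h before H2O2. Treated and untreated cells therefore differ in H2O2 and in serum at once, which cannot be told apart, and the labels do not say whether the libraries of a group came from separate cultures. The study's methods state in general that experiments in culture were repeated independently or on biological replicates, without naming these libraries, so p-values here measure the spread between libraries, which may be technical.

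Immediate early genes are transcribed within minutes of a stimulus such as serum, growth factors or stress, without the need for new protein. AP-1 is a dimer of basic leucine zipper proteins, either a Jun protein with a Fos protein or a pair of Jun proteins, and it binds short DNA elements known as TRE and CRE. Fos, Fosb, Jun and Junb are classically induced briefly, Jund is expressed steadily in most cells, and Fosl1 and Fosl2 follow later and encode Fos relatives without the strong activation domain of Fos. Egr1 is a zinc finger transcription factor, Ier3 an early response protein linked to survival under stress, and Myc a transcription factor that with Max drives genes of growth and ribosome production. In the proximal tubule several of these genes are known for an early rise after injury. Here they were read 24 h after H2O2, so the values describe a late level and not the early peak.

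The genes lie on several chromosomes of GRCm38.p6. Positions below are the bounds of each gene in RefSeq, with the counted Ensembl transcript in brackets, whose own ends can differ. Each count covers all exons of the transcript, UTRs included. Fos (ENSMUST00000021674) is at chr12:85473890-85477274 on the plus strand and Fosb (ENSMUST00000003640) at chr7:19302696-19310118 on the minus strand. Fosl1 (ENSMUST00000025850) is at chr19:5447698-5455938 and Fosl2 (ENSMUST00000031017) at chr5:32136472-32157840, both on the plus strand. Jun (ENSMUST00000107094) is at chr4:95049036-95052222 on the minus strand, Junb (ENSMUST00000064922) at chr8:84976909-84978748 on the minus strand, and Jund (ENSMUST00000095267) at chr8:70697739-70700616 on the plus strand. Ier3 (ENSMUST00000003635) is at chr17:35821713-35822911 and Myc (ENSMUST00000022971) at chr15:61985341-61990361, both on the plus strand. Fosb and Myc each have 7 annotated transcripts and Fos has 4, whereas Jun, Jund, Egr1 and Ier3 have 1.

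Promoters of 7 of the 10 genes were found in a RefSeq table of GRCm38.p6; those of Fosl1, Egr1 and Myc are not shown. The 250 bases before the RefSeq start are printed for Fos, Jun and Fosl2, because these genes differed in how they moved between the lines, as given further on. They are written 5′ to 3′ on the strand of the gene, with the searched motifs that were found in capitals.
Fos, chr12:85473640-85473889, plus strand: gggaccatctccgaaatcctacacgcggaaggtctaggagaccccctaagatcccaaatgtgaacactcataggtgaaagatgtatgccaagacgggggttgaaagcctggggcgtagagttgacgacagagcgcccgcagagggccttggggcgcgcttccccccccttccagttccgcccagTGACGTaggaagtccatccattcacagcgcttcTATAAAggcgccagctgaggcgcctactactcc
Jun, chr4:95052223-95052472, minus strand: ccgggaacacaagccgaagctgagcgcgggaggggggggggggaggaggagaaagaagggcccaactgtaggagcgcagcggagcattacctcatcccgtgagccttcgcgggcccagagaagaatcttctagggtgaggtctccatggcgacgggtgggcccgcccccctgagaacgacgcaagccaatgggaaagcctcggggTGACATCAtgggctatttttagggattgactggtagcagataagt
Fosl2, chr5:32136222-32136471, plus strand: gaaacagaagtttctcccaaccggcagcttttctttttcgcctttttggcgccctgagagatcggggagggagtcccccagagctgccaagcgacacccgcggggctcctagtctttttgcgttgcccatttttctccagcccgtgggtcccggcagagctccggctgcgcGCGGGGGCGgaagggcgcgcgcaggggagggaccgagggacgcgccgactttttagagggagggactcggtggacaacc
The capitals in Fos mark TGACGT, which is contained in the full CRE, 66 to 61 bases before the start, and the TATA box TATAAA 33 to 28 bases before it. Those in Jun mark TGACATCA, the variant element known from the Jun promoter, 45 to 38 bases before the start, and those in Fosl2 mark an Egr element, GCGGGGGCG, 79 to 71 bases before it. The Egr element also occurred in the window of Fosb, whose table start lies inside the outer bounds of its gene. Of 32851 promoter windows of the same length, searched on both strands, 6.47% held TGACGT, 12.4% TATAAA, 2.93% TGACATCA and 2.57% GCGGGGGCG; TGACGT and TGACATCA were added to the search after the sequences had been read. None of the 7 windows held TGANTCA (the TRE, in 6.75% of all windows), TGACGTCA (the full CRE, 1.55%), CACGTG (the E box bound by Myc, 6.02%), CCGGAA (Ets, 12%), GTCTAGAC (Smad, 0.167%) or a CArG box (1.47%). A missing match says only that these letters are not in this window.

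Gene totals ranged from 15870155 to 20857618 counts per library, and 12971 genes, all 10 members among them, had enough counts to be tested. Values below are counts scaled to one library size (normalized counts), given per library in the order of the replicates. The first principal component held 81.5% of the variance and separated the lines. Tgfbr2 was counted in every TβRII-/- library, at 6358 to 6782 normalized counts untreated against 7562 to 9248 in untreated floxed cells, over all exons of its transcript, so its total is no direct check of the deleted part. Of 13 proximal tubule markers 8 passed the filter on low counts, with a summed level of 39944.5 to 47865 in untreated floxed and 44079 to 48284 in untreated TβRII-/- cells; Slc34a1, Slc22a6, Slc22a8 and Hnf4a were at or near 0 in all 4 groups. Of these 8 markers 6 were lower and 2 higher in untreated TβRII-/- cells (median log2 fold change -0.67), and 5 lower and 3 higher with H2O2 (median -0.91). Mean normalized counts of Lrp2 were 17280 in untreated floxed and 11016 in untreated TβRII-/- cells, and those of Aqp1 7103 and 4421. Cdh16, at 10306 and 21439, kept the untreated sums in overlap. Treated proximal tubule sums did not overlap, at 51386 to 55658 in floxed and 47583 to 48870 in TβRII-/- cells. The epithelial markers differed widely between the lines, from 2664 to 3040.2 summed in untreated floxed to 10771 to 11079 in untreated TβRII-/- cells, with Cdh1 at a mean of 1.80 and 1111; with H2O2 the sums were 2154 to 2317 and 8716 to 9242. All 5 tested epithelial markers of 6 were higher in TβRII-/- cells. The defining leukocyte and endothelial markers Ptprc, Adgre1, Cd3e, Pecam1 and Cdh5 were at or near 0 in all groups, and summed fibroblast markers were between 16.5 and 96.3. Leukocyte sums, mostly Csf1r, were 909 to 1164, and endothelial sums, mostly Kdr, 22.7 to 586. The part that the shifts in epithelial and proximal tubule genes have in the differences between lines was not tested, and fewer cells with a gene on and less RNA per cell cannot be told apart in these bulk samples.

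The 10 genes split by genotype and did not move as a block. In untreated cells 6 were lower in TβRII-/- cells (Fos, Jun, Junb, Jund, Egr1 and Ier3), 3 were higher (Fosl1, Fosl2 and Myc) and Fosb did not pass the edgeR quasi-likelihood test at an adjusted p of 0.05. That test called 64.7% of all genes in this comparison, 33.3% as higher and 31.4% as lower, so passing it is common. With H2O2 in both lines, 5 were lower (Fos, Junb, Jund, Egr1 and Ier3) and 3 higher (Fosb, Fosl2 and Myc), beside 66.4% of all genes, 31.3% lower and 35.1% higher. H2O2 in serum-free medium moved fewer of them: in floxed cells Fos and Egr1 rose and Fosl1, Jun and Myc fell (41.6% of all genes called, 21.0% up and 20.5% down), and in TβRII-/- cells Fos, Fosl2, Jun, Egr1 and Ier3 rose and Fosl1 and Myc fell (39.6%, with 20.5% up and 19.1% down). The H2O2 effect itself differed between the lines for 2 of 10, higher in TβRII-/- cells for Jun and lower for Egr1, where 10.2% of all genes were called, 3.90% higher and 6.28% lower. The libraries of the groups compared did not overlap for 8 members between the untreated and 8 between the treated lines, and for 5 and 7 with H2O2 in floxed and TβRII-/- cells; over all genes this held for 65.3%, 71.0%, 47.4% and 52.1%. The members' median log2 fold change was -0.27 between the untreated lines and -0.04 between the treated lines, against 0.01 and 0.02 over all genes, and -0.07 and 0.06 with H2O2 in floxed and TβRII-/- cells, against 0.01 and 0.02.

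The study's limits, a p under 0.01 and a change of at least 1.5-fold, kept few of these calls. The limits were applied here to unadjusted p-values of the edgeR test. The study used DESeq2 and does not say whether its p was adjusted. Fos and Egr1 were past them between the untreated lines (27.0% of all genes were), and Fos, Fosb, Junb and Egr1 between the treated lines (29.8%). Egr1 alone was past them for H2O2 in floxed cells (7.56%), and Fos and Fosl1 in TβRII-/- cells (7.77%). Fos sat close to 1.5-fold (0.585 on the log2 scale) in each comparison and lay on the other side of that limit under some other settings. This closeness depends on the transcript chosen. With counts summed over its transcripts Fos was at -0.77 and -0.80 between the untreated and the treated lines. With H2O2 it was then at 0.67 in floxed and 0.64 in TβRII-/- cells. Without replicate 2 of the untreated TβRII-/- cells no member was past the limits between the untreated lines, and without replicate 2 of the treated ones 2 were between the treated lines.

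**Figure D1:**
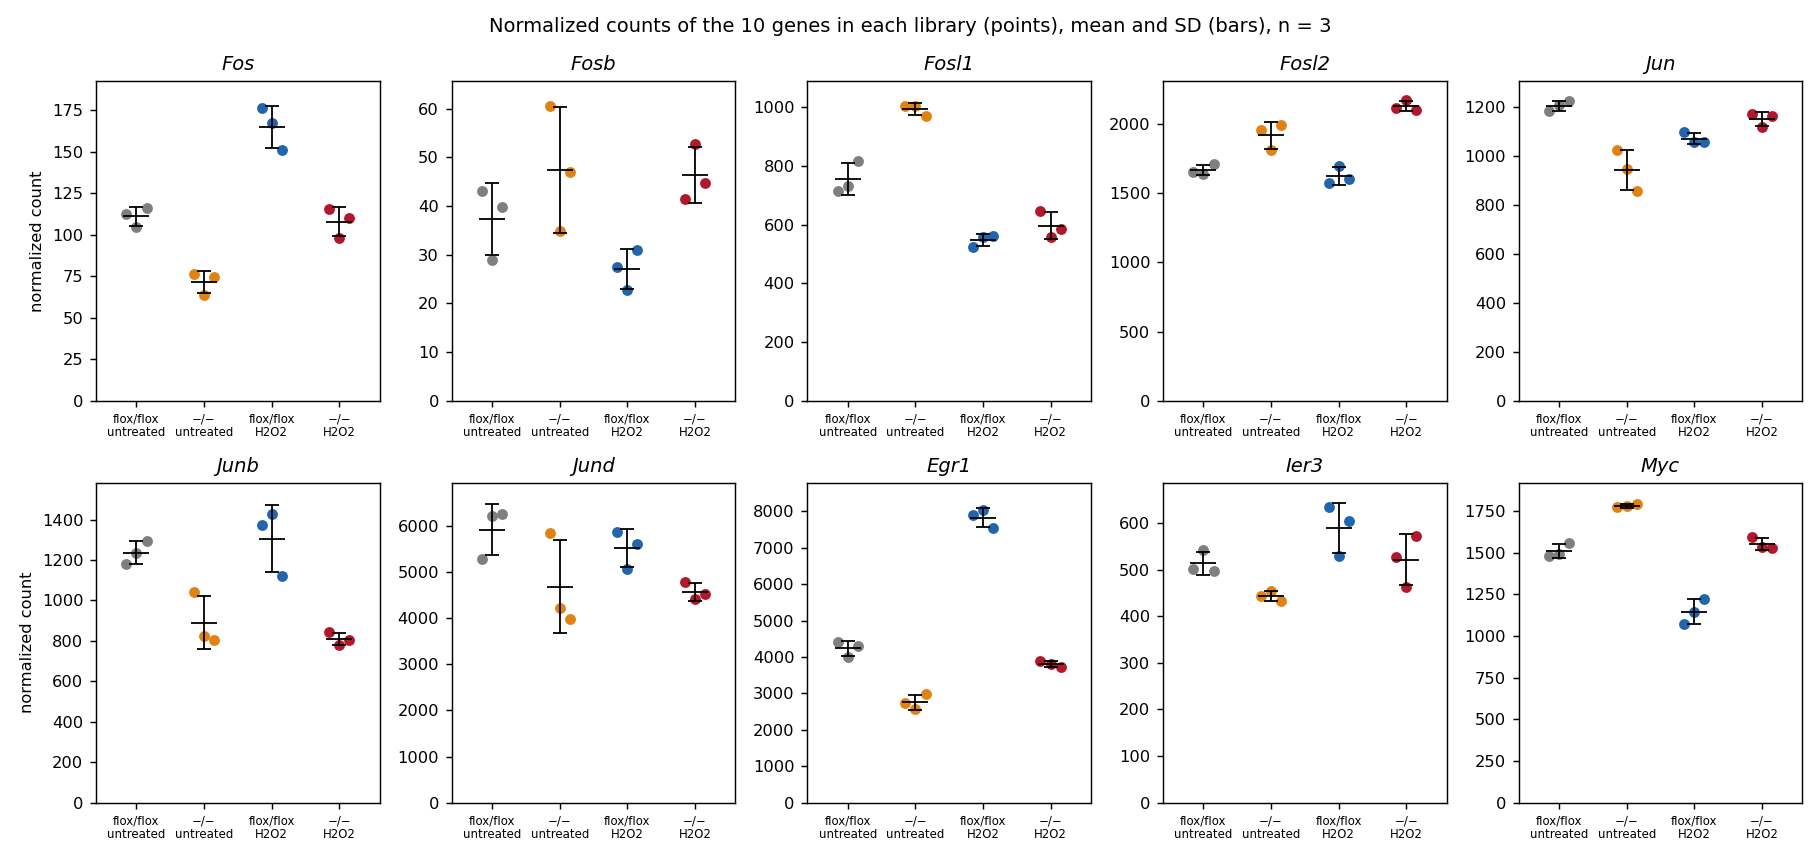
Normalized counts (y axis, linear, from 0) of each of the 10 genes in the 4 groups (x axis); each point is 1 library and bars give mean and SD of 3 libraries. Egr1 lies between 7527 and 8043 in floxed cells with H2O2, above all other libraries, and Jun is lower in untreated TβRII-/- cells (858 to 1023) than in the other 3 groups.

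Levels of different genes can be compared only per length of transcript. Lengths here are those of GENCODE M39, whereas the counts were made on M23, so the counted models can differ in length. Per kilobase, Jund led in every group, with a mean of 3553 ± 328 normalized counts per kilobase (SD, n = 3) in untreated floxed cells, followed by Egr1 at 943 ± 46.9. Junb (683 ± 31.3) and Myc (637 ± 18.0) came next and their libraries overlapped, as did those of the following pair, Ier3 (451 ± 21.1) and Fosl1 (405 ± 28.9). Jun (378 ± 6.55), Fosl2 (239 ± 4.98), Fos (52.6 ± 2.80) and Fosb (9.86 ± 1.96) closed the order, each separate from its neighbours. In untreated TβRII-/- cells Myc had 750.0 ± 4.42 and Egr1 613 ± 46.3 per kilobase, and Fosl1 (533 ± 10.8) overlapped Junb (492 ± 72.7). The order of Myc and Egr1 there is not settled. The length used for Egr1, 4496 bases, exceeds its whole RefSeq gene (chr18:34861207-34864956), and a shorter model would raise its values per kilobase in every group. With H2O2 Egr1 was second in both lines, at 1740 ± 59.1 per kilobase in floxed and 846 ± 20.7 in TβRII-/- cells, and Fos and Fosb stayed last.

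The Fos family was therefore mostly Fosl1 and Fosl2. Fosl1, which encodes Fra-1, made up 57.3 ± 1.26% of the family's counts per kilobase (SD, n = 3) in untreated floxed and 62.4 ± 1.75% in untreated TβRII-/- cells. With H2O2 its share was 48.0 ± 1.14% and 46.4 ± 1.94%. Fosl2, which encodes Fra-2, held 33.9 ± 1.02% and 32.2 ± 1.25% untreated and 38.0 ± 0.613% and 44.4 ± 2.0% with H2O2, so that in treated TβRII-/- cells the libraries of both genes overlapped. Fos itself held 7.44 ± 0.281% in untreated floxed against 3.96 ± 0.306% in untreated TβRII-/- cells, and 12.8 ± 1.13% against 7.41 ± 0.421% with H2O2. In the Jun family Jund held between 75.8% and 77.9% of the counts per kilobase in all 4 groups. Jun ranged from 7.68 ± 0.262% in floxed to 10.2 ± 0.235% in TβRII-/- cells with H2O2, where Junb ranged from 16.6 ± 2.32% to 12.6 ± 0.0336%. These shares are a description of RNA, and no test was run on them.

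**Figure D2:**
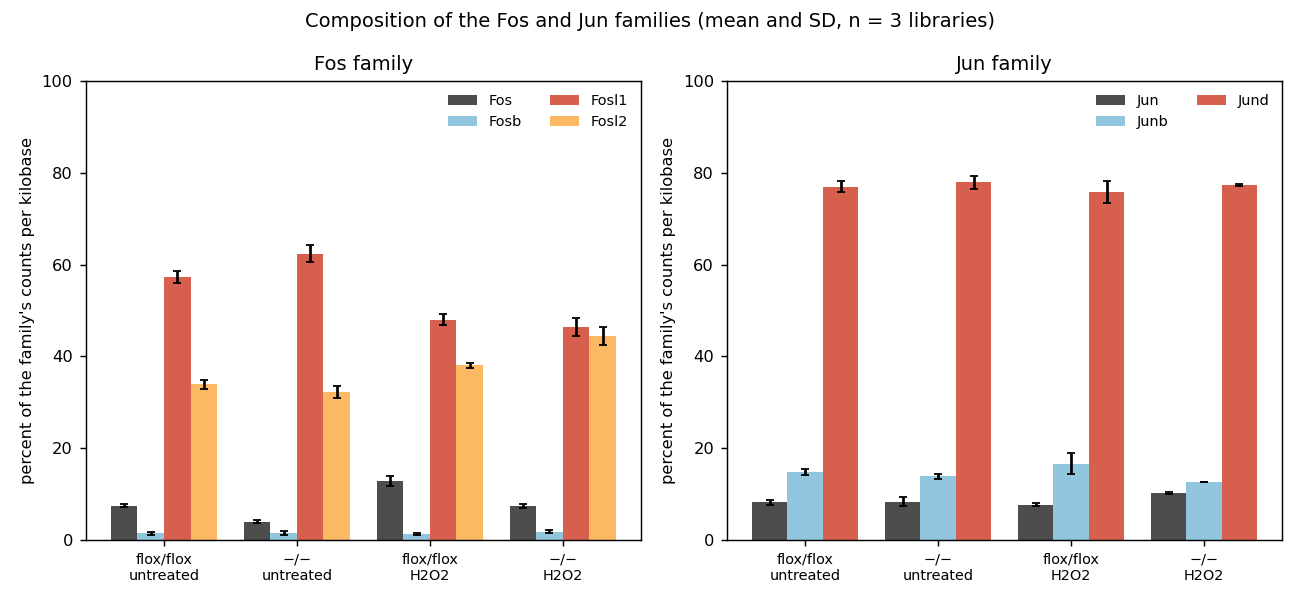
Share of each gene in the counts per kilobase of the Fos family (left) and the Jun family (right), in percent (y axis), for the 4 groups (x axis); bars start at 0 and give the mean of 3 libraries, with SD. Fosl1 leads the Fos family in 3 groups and overlaps Fosl2 in TβRII-/- cells with H2O2 (46.4% and 44.4%), and Jund leads the Jun family throughout.

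Fos encodes the founding Fos protein of AP-1. Its normalized counts were 113, 105 and 116 in untreated floxed cells and 76.3, 63.9 and 74.7 in untreated TβRII-/- cells. Every untreated TβRII-/- library lay below every untreated floxed library, with a log2 fold change of -0.63 (SE 0.15, edgeR adjusted p = 0.000329), 1.55-fold lower. With H2O2 the counts were 177, 167 and 151 in floxed and 115, 98.3 and 110.4 in TβRII-/- cells. The treated lines again did not overlap, and the difference was of like size, -0.62 on the log2 scale (SE 0.13, edgeR adjusted p = 7.74e-05). Fos rose with H2O2 by 0.57 on the log2 scale in floxed (SE 0.13, edgeR adjusted p = 0.000653) and by 0.59 in TβRII-/- cells (SE 0.14, edgeR adjusted p = 0.00142). Of the 10 genes it had the smallest difference between the H2O2 effects of the lines, 0.02 with a 95% interval from -0.37 to 0.40. The treated TβRII-/- libraries (98.3 to 115) overlapped the untreated floxed libraries (105 to 116).

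Fosb, which encodes another inducible Fos protein, was the least abundant member, with raw counts of 22 to 67 per library. Normalized, it had 43.1, 28.9 and 39.8 counts in untreated floxed and 60.7, 34.9 and 46.9 in untreated TβRII-/- cells. These overlapped, and the log2 fold change of 0.34 had a 95% interval from -0.15 to 0.82 (edgeR adjusted p = 0.214). With H2O2 it had 27.4, 22.7 and 30.9 counts in floxed and 41.5, 52.7 and 44.7 in TβRII-/- cells. The treated lines did not overlap, and Fosb was 1.73-fold higher in TβRII-/- cells (log2 0.79, SE 0.25, edgeR adjusted p = 0.00606). This was the opposite side to Fos. Its changes with H2O2, -0.47 in floxed (95% interval -1.01 to 0.07) and -0.02 in TβRII-/- cells (-0.47 to 0.43), did not pass the test, and at this depth their intervals still hold sizeable changes.

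Fosl1 had 716, 731 and 816 normalized counts in untreated floxed cells and 1005, 1004 and 969.7 in untreated TβRII-/- cells. The TβRII-/- libraries were all higher, by 1.32-fold (log2 0.40, SE 0.07, edgeR adjusted p = 8.96e-06). It fell with H2O2 in both lines, to 525, 557 and 560.4 counts in floxed and 648, 558 and 584 in TβRII-/- cells. The log2 fold change with H2O2 was -0.46 in floxed (SE 0.07, edgeR adjusted p = 6.39e-06) and -0.74 in TβRII-/- cells (SE 0.07, edgeR adjusted p = 5.73e-10). Treated libraries of the 2 lines overlapped, with a difference of 0.12 that did not pass the test (95% interval -0.03 to 0.27). The gap between the H2O2 effects, -0.27, had an adjusted p of 0.0836 by edgeR; it passed only without replicate 3 of the untreated floxed cells, at 0.0219.

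Fosl2 was higher in TβRII-/- cells both without and with H2O2. It had 1654, 1641 and 1707 normalized counts in untreated floxed and 1956, 1809 and 1992 in untreated TβRII-/- cells, which did not overlap (log2 0.20, SE 0.06, edgeR adjusted p = 0.00289). With H2O2 the counts were 1573, 1693 and 1601 against 2118, 2168 and 2099, again without overlap (log2 0.39, SE 0.06, edgeR adjusted p = 4.47e-07). The 24 tested genes nearest to Fosl2 on its chromosome also had a positive median between the lines, 0.41 untreated and 0.48 with H2O2, above the 0.20 and 0.39 of Fosl2 itself. H2O2 left it at -0.04 in floxed (95% interval -0.16 to 0.08). In TβRII-/- cells it rose by 0.15 (SE 0.06, edgeR adjusted p = 0.0352), a call that 12 of 19 other settings did not make, with adjusted p up to 0.197.

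Jun, whose protein can bind DNA both with Fos proteins and as a Jun dimer, was the member whose direction depended on the line. Untreated floxed cells had 1181, 1207 and 1223 normalized counts and untreated TβRII-/- cells 1023, 945 and 858. Jun was 1.28-fold lower in the latter, with no overlap (log2 -0.36, SE 0.06, edgeR adjusted p = 1.45e-05). After H2O2 the counts were 1096, 1056 and 1058 in floxed and 1169.5, 1117 and 1161 in TβRII-/- cells. All treated TβRII-/- libraries now lay above the treated floxed ones, though the log2 fold change of 0.10 did not pass the test (95% interval -0.03 to 0.23, edgeR adjusted p = 0.154). Jun rose with H2O2 in TβRII-/- cells, by 0.29 on the log2 scale (SE 0.06, edgeR adjusted p = 0.000557). In floxed cells it fell by 0.17 on the log2 scale (SE 0.06, edgeR adjusted p = 0.0323), a call lost in 6 of 19 other settings, DESeq2 among them at an adjusted p of 0.0566. The H2O2 effects of the lines differed by 0.46 (SE 0.09, edgeR adjusted p = 0.000987), and this held in every alternative run, from 0.40 to 0.52.

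Junb and Jund encode the other Jun proteins. Junb had 1178, 1236 and 1292 normalized counts in untreated floxed and 1042, 825 and 804 in untreated TβRII-/- cells, all of the latter lower (log2 -0.47, SE 0.08, edgeR adjusted p = 1.00e-05). With H2O2 it had 1372, 1429 and 1119 counts against 842, 781 and 803, and was 1.62-fold lower in TβRII-/- cells (log2 -0.69, SE 0.08, edgeR adjusted p = 1.00e-08). H2O2 changed it by 0.08 in floxed (95% interval -0.08 to 0.25) and by -0.14 in TβRII-/- cells (-0.31 to 0.04), neither past the test. Jund had 5293, 6218 and 6259 counts untreated in floxed and 5849.9, 4224 and 3985 in TβRII-/- cells. These ranges overlapped through replicate 1 of the TβRII-/- cells, which was also the highest of its group for Junb, and the log2 fold change was -0.34 (SE 0.09, edgeR adjusted p = 0.00173). With H2O2 Jund had 5880.3, 5077 and 5613 counts against 4789.8, 4411 and 4517, without overlap (log2 -0.27, SE 0.09, edgeR adjusted p = 0.00947; DESeq2 gave 0.0742). Its changes with H2O2, -0.10 and -0.03, did not pass the test.

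Egr1, the zinc finger factor, had the largest change of the 10 genes in floxed cells with H2O2 and between the treated lines. It had 4404, 4002 and 4314 normalized counts in untreated floxed cells and 7898, 8043 and 7527 after H2O2. The groups were far apart, a rise of 1.85-fold (log2 0.88, SE 0.06, edgeR adjusted p = 4.32e-13), larger than the change of 94% of all genes tested. In TβRII-/- cells Egr1 had 2735, 2563 and 2977 counts untreated and 3898, 3805 and 3712 after H2O2. It rose there as well, by 1.38-fold (log2 0.46, SE 0.06, edgeR adjusted p = 5.09e-07), and every treated TβRII-/- library stayed below every untreated floxed library. Between the lines Egr1 was 1.54-fold lower in TβRII-/- cells untreated (log2 -0.62, SE 0.06, edgeR adjusted p = 2.87e-10) and 2.06-fold lower with H2O2 (log2 -1.04, SE 0.06, edgeR adjusted p = 6.44e-16). The rise with H2O2 was smaller in TβRII-/- cells, with a difference of -0.42 on the log2 scale (SE 0.09, edgeR adjusted p = 0.00184), and all alternatives gave this call, from -0.48 to -0.36. Its 24 nearest tested genes had a median of -0.28 between the untreated and -0.36 between the treated lines, smaller than its own change.

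The changes of Ier3 were small, and its calls depended on the settings more often than those of the other members. It had 502, 541 and 497 normalized counts in untreated floxed and 443, 454 and 433 in untreated TβRII-/- cells, which did not overlap (log2 -0.21, SE 0.08, edgeR adjusted p = 0.0291; lost in 4 of 19 other settings). With H2O2 it had 633, 529 and 605 counts against 527, 463 and 573. These overlapped, and the log2 fold change of -0.18 (SE 0.08, edgeR adjusted p = 0.0485) was lost in 12 of 19 other settings, with adjusted p up to 0.333. Its changes with H2O2 were 0.20 in floxed (edgeR adjusted p = 0.0516) and 0.23 in TβRII-/- cells (edgeR adjusted p = 0.0277), on either side of the threshold. They differed by 0.03, with an adjusted p of 0.926 by edgeR, and the first was gained in 6 and the second lost in 5 of 19 other settings.

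Myc was higher in TβRII-/- cells and fell with H2O2 in both lines. Normalized counts were 1483, 1492 and 1562 in untreated floxed and 1773, 1778 and 1793 in untreated TβRII-/- cells. The TβRII-/- libraries were all higher (log2 0.24, SE 0.06, edgeR adjusted p = 0.000741). With H2O2 the counts were 1072, 1145 and 1222 in floxed and 1594, 1535 and 1527 in TβRII-/- cells, 1.36-fold higher in the latter (log2 0.44, SE 0.06, edgeR adjusted p = 1.11e-07). Myc fell with H2O2 by 0.40 on the log2 scale in floxed (SE 0.06, edgeR adjusted p = 2.93e-06) and fell by 0.20 in TβRII-/- cells (SE 0.06, edgeR adjusted p = 0.00676). These falls differed by 0.20, which did not pass the test (edgeR adjusted p = 0.125). The 24 nearest tested genes of Myc had medians of 0.33 and 0.40 between the untreated and the treated lines, beside 0.24 and 0.44 for Myc itself.

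**Figure D3:**
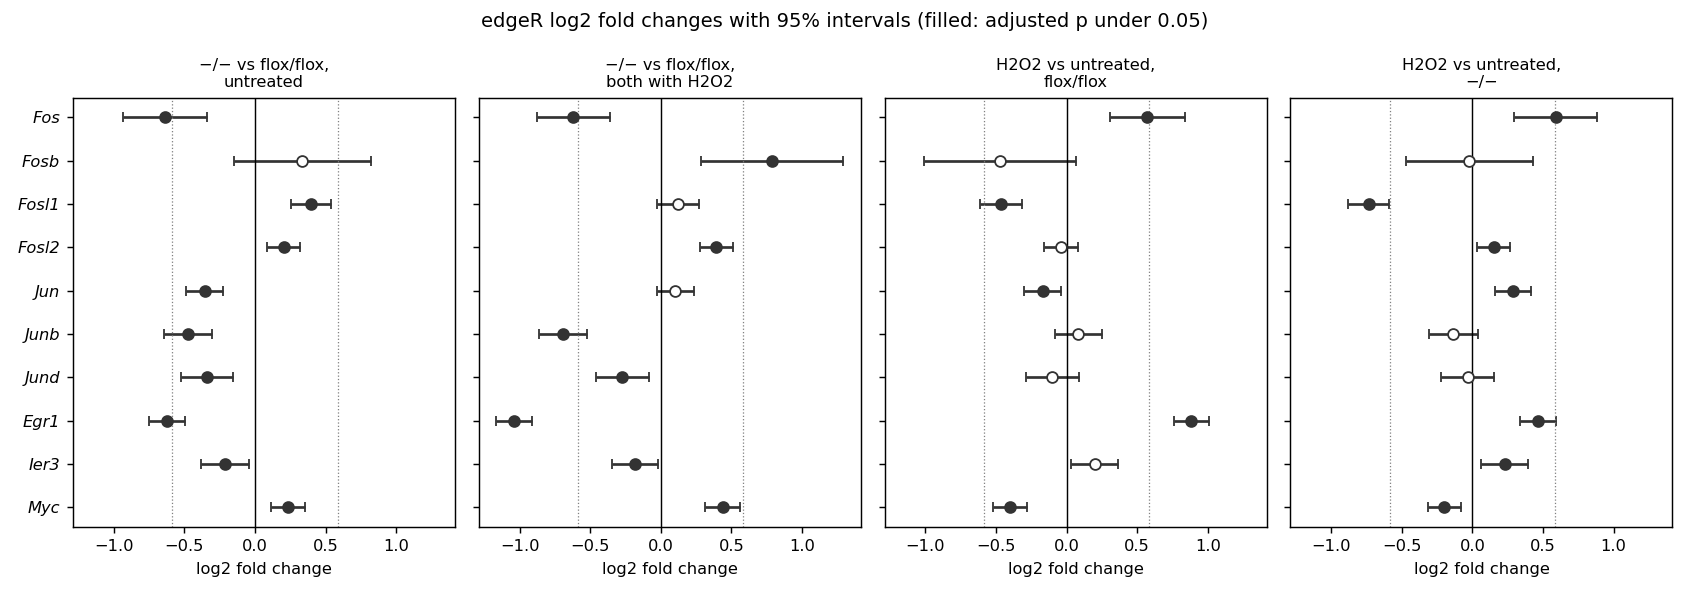
Log2 fold change (x axis) of each gene in the 4 comparisons, with 95% intervals from edgeR; filled points have an adjusted p under 0.05 and dotted lines mark 1.5-fold in either direction. Egr1 lies at -1.04 between the treated lines and 0.88 with H2O2 in floxed cells, and the interval of Fosb is the widest in each panel.

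The genes outside the list with values most like those of the members over the 12 libraries were also picked. Such a ranking always yields nearest genes, and no reference distance was computed, so the distances are a description. For members whose group means differed by at least 1.5-fold, 12272 genes were ranked by the root-mean-square difference of centred log2 values. Siae (0.108) and Arhgef40 (0.113) were nearest to Fos, and Sort1 (0.12) was among the nearest to Egr1. Sort1, the sorting receptor sortilin, had means of 1266 and 1973 normalized counts in floxed cells without and with H2O2, and 804 and 993 in TβRII-/- cells. Commd9 (0.172) and Mzt2 (0.18) were nearest to Fosb, Psat1 (0.0842) and Hprt1 (0.085) to Fosl1, Zdhhc3 (0.106) and B3galt6 (0.109) to Junb, and Gng12 (0.0535) and Phf5a (0.058) to Myc.

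Other immediate early genes, 25 of 27 of which were tested, went both ways with H2O2 as well. In floxed cells 5 rose and 11 fell, beside 21.0% and 20.5% of all genes. In TβRII-/- cells 8 rose and 10 fell, beside 20.5% and 19.1%. Sgk1, a serum-responsive kinase, fell, with log2 fold changes of -1.93 and -3.03, and so did Dusp1, a phosphatase that switches off MAP kinases, at -1.45 and -1.08 (all past the edgeR test). Egr2, a relative of Egr1 with low counts, rose by 1.18 (SE 0.40) and 1.58 (SE 0.39). Hbegf, an EGF receptor ligand, rose by 1.01 (SE 0.06) in floxed cells; in TβRII-/- cells its change was 0.16 and did not pass the test, and the effects differed by -0.85 (edgeR adjusted p = 1.65e-07). For Ptgs2, the inducible cyclooxygenase, they differed by -0.86, and for the nuclear receptor Nr4a1 by 0.63. Between the untreated lines 6 of the 25 were higher in TβRII-/- cells, led by Klf2 at 3.01 and Trib1 at 1.63, and 10 were lower, led by Ccn1 at -1.11. Between the treated lines 10 were higher and 9 lower. Of all genes, 33.3% were called higher and 31.4% lower untreated, and 35.1% and 31.3% with H2O2. In their H2O2 effect 4 of the 25 differed in each direction, beside 3.90% of all genes higher and 6.28% lower. The list's medians lay between -0.15 and 0.13 in the 5 comparisons.

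Genes upstream of the members, feedback genes and genes able to act on member proteins or mRNAs were called in both directions, in uneven counts. Of 29 tested MAP kinases and their feedback genes, 15 were higher and 4 lower in untreated TβRII-/- cells (33.3% and 31.4% of all genes). Between the treated lines 16 were higher and 4 lower (35.1% and 31.3%). Mapk13, the p38 delta kinase, was among the higher ones, with a mean of 1.11 normalized counts in untreated floxed against 97.7 in untreated TβRII-/- cells, and so were the ERK feedback genes Spry4 (1.79) and Dusp4 (1.16). H2O2 raised 2 and lowered 11 of the 29 in floxed cells (21.0% and 20.5% of all genes). It raised 12 and lowered 8 in TβRII-/- cells (20.5% and 19.1%). Of the 9 genes of serum response factor, its Ets cofactors and the Nab corepressors, 1 was higher and 3 lower untreated and 2 and 5 with H2O2; Elk3 (-0.81) and Srf (-0.38) were lower in untreated TβRII-/- cells. With H2O2, 3 rose and 3 fell in floxed cells. In TβRII-/- cells 3 rose and 0 fell by the edgeR test, with 0 fallen at an unadjusted p under 0.05 and 0 by DESeq2. Nab2, which binds Egr proteins and curbs them, rose in both, by 0.61 (SE 0.06) and 0.38 (SE 0.06). Of 8 factors that act on AU-rich mRNAs, the kind to which Fos and Myc mRNAs belong, 1 was higher and 4 lower untreated and 4 and 3 with H2O2. In floxed cells 4 of them fell with H2O2 and 0 rose by the edgeR test (0 at an unadjusted p under 0.05 and 0 by DESeq2), and in TβRII-/- cells 2 rose and 3 fell. Zfp36l1 was the one whose H2O2 effect differed, by 0.55 (edgeR adjusted p = 4.51e-05).

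Of 15 tested bZIP partners that can pair with AP-1 proteins, 8 were higher and 4 lower in untreated TβRII-/- cells (all genes 33.3% and 31.4%). Between the treated lines 9 were higher and 2 lower (35.1% and 31.3%). Maf was higher by 1.65 (SE 0.07) and 1.11 (SE 0.07), and Nfe2l1 was lower, at -0.55 and -0.69. With H2O2 3 rose and 5 fell in each line, and Maff, Jdp2 and Atf4 fell in both. Called as rising and falling were 21.0% and 20.5% of all genes in floxed and 20.5% and 19.1% in TβRII-/- cells. AP-1 target genes, 16 of 22 of which were tested, showed no common direction: 7 were higher and 7 lower untreated and 6 and 6 with H2O2. The gelatinase gene Mmp9 was lower in untreated TβRII-/- cells at -3.81 (SE 0.55), whereas the metallothionein Mt2 was higher by 2.84 (SE 0.10) and cyclin D1 (Ccnd1) by 2.54 (SE 0.07). H2O2 raised 4 and lowered 7 of them in floxed and 4 and 6 in TβRII-/- cells; Ccnd1 fell in both, at -1.51 and -0.92.

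Most of the listed Myc targets fell with H2O2 in both lines. Of 22 genes of ribosome production, polyamine synthesis and growth, all tested, 16 fell and 0 rose in floxed cells, with a median of -0.29 against 0.01 over all genes, and 20 fell and 0 rose in TβRII-/- cells, with a median of -0.37 against 0.02. Over all genes 20.5% in floxed and 19.1% in TβRII-/- cells were called as lower, and 21.0% and 20.5% as higher. At an unadjusted p under 0.05 the edgeR test also had 0 risen targets in either line, and DESeq2 had 0. Ldha, the lactate dehydrogenase subunit, fell from a mean of 5568 ± 395 to 3013 ± 261 normalized counts in floxed and from 7144 ± 156 to 3953 ± 109 in TβRII-/- cells (SD, n = 3). Odc1, which starts polyamine synthesis, fell as well, at -0.66 (SE 0.07) and -0.56 (SE 0.07), and Srm, the spermidine synthase, fell to 669 ± 5.48 normalized counts in TβRII-/- cells, at -0.57 (SE 0.06). Between the lines, where Myc was higher in TβRII-/- cells, 4 of the targets were higher and 6 lower untreated (33.3% and 31.4% of all genes). With H2O2 2 were higher and 9 lower (35.1% and 31.3%). Srm was lower in both, at -0.56 and -0.67. Among 14 genes of the Myc network, 6 were higher and 2 lower in each comparison of the lines. The Max partners Mxd4 and Mxi1, which oppose Myc, were higher by 1.88 and 1.28 untreated, and Mycn, the relative of Myc, was lower, at -0.87. With H2O2, 5 rose and 2 fell in floxed, Mxd1 by 0.41 among the former, and 6 rose and 2 fell in TβRII-/- cells; Max fell in both, at -0.21 and -0.28.

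**Figure D4:**
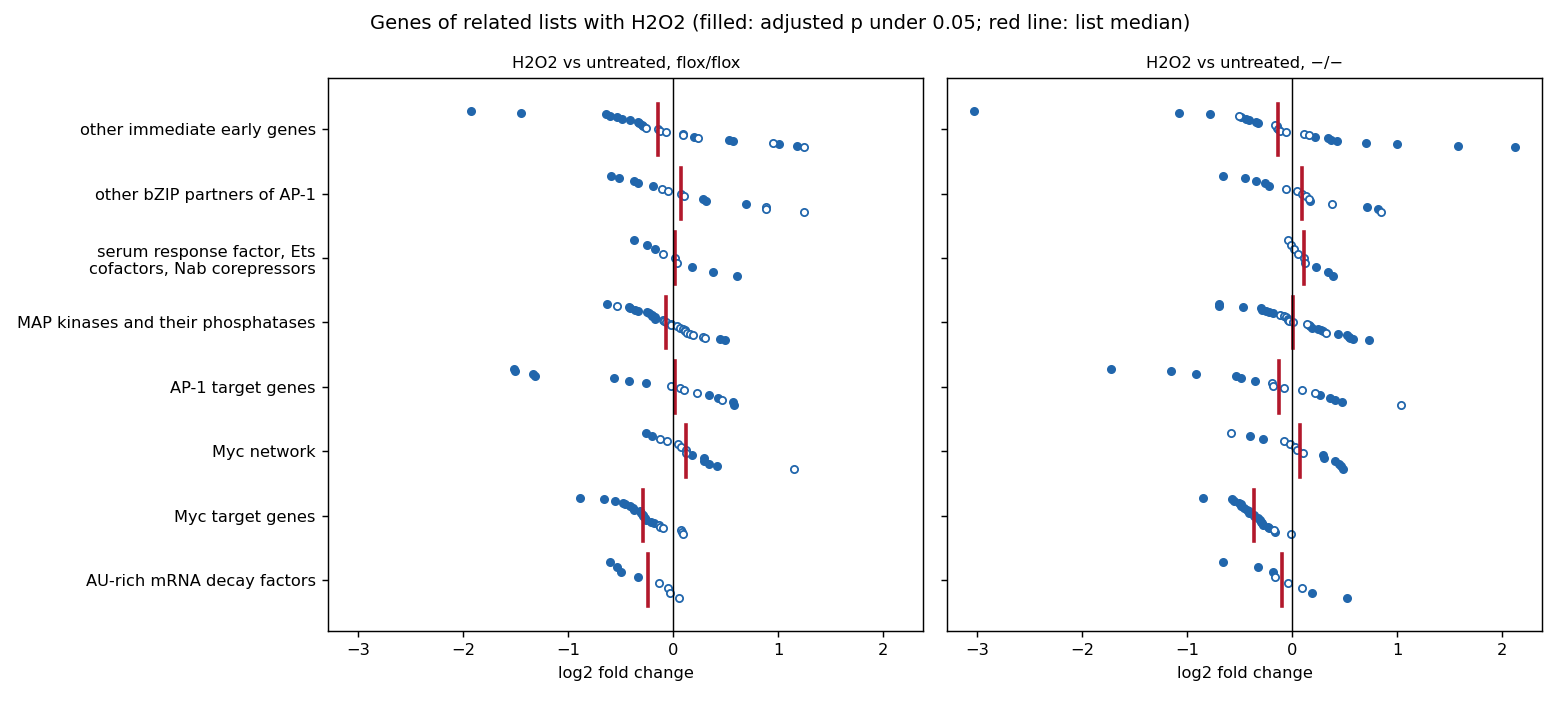
Log2 fold change with H2O2 (x axis) of each tested gene of the 8 lists (rows) in floxed (left) and TβRII-/- cells (right); filled points have an edgeR adjusted p under 0.05 and red lines mark list medians. Myc target genes lie mostly below 0 (medians -0.29 and -0.37), and AU-rich mRNA decay factors are also mostly below 0 in floxed cells (median -0.24), while the remaining lists spread to both sides.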

How the data were processed

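RNA of 12 libraries of PT cells was isolated (the study's methods name a Macherey-Nagel kit and the labels a Qiagen kit), made into stranded mRNA libraries and sequenced on a NovaSeq. The authors trimmed reads with fastp, mapped them by STAR to the genome GRCm38.p6 and used featureCounts on GENCODE M23 (versions not given in the sources used here). The deposited values are raw counts per transcript, not normalized, in which transcripts of 1 gene share reads; how the authors treated reads shared between genes is not given in the sources used here.

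Of 106332 transcripts, 104820 matched GENCODE M39 by identifier and gave 25514 genes; the other 1512 held 1.22% to 1.28% of a library's counts and were left out. Gene counts had been assumed in the design. The transcript with the highest total stood for each gene, since transcript totals were 3.24 to 3.37 times the gene totals. In R 4.3.3, edgeR 4.0.16 (limma 3.58.1) was run with TMM, filterByExpr, a mean per group and the quasi-likelihood test over 12971 genes, with Benjamini-Hochberg adjustment and a threshold of 0.05. The 5 comparisons were genotype untreated, genotype with H2O2, H2O2 in each line, and the difference of the H2O2 effects. Normalized counts are scaled to an effective library of 17351835 counts, and their precision is the spread of 3 libraries. Libraries of a group differed by more than sampling noise (chi-square per gene 3.58 to 12). Alternatives were DESeq2's size factors, DESeq2 1.42.0, no filter, at least 10 counts in every library, the replicate block, counts summed over transcripts, only the groups compared, and leaving out each library. The procedure was tested on simulated data.

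The members, lists and tests were chosen with earlier results of these data known. Besides the members, the text names up to 3 genes per list, comparison and direction with the largest log2 fold change past the threshold, and the 2 coding genes most like each member whose group means differ by at least 1.5-fold (a pseudocount of 0.5, a mean of at least 10 counts). Neighbours are the 12 tested genes on each side of a member. Lists were described by counts and medians, with no set test. Some genes that meet these rules are not reported here. Promoters and coordinates came from RefSeq tables of GRCm38.p6, searched with Python 3.11.15.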

Additional observations from a re-analysis of the deposited data

Results flagged for a closer look

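The H2O2 effect differed between the lines for 2 of the 10 genes by the test of the difference itself. For Egr1 it was lower in TβRII-/- cells by -0.42 on the log2 scale (SE 0.09, edgeR adjusted p = 0.00184): Egr1 rose by 0.88 in floxed and by 0.46 in TβRII-/- cells, and all libraries of both treated groups lay above the untreated ones of their line. For Jun it was higher in TβRII-/- cells by 0.46 (SE 0.09, edgeR adjusted p = 0.000987): all 3 treated TβRII-/- libraries lay above the untreated ones, and all 3 treated floxed libraries below theirs. Treated cells of both lines were also without serum, and the part of serum in these differences cannot be told apart.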

How the results depend on the processing

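Over the 10 genes and 5 comparisons, 877 of the log2 fold changes recomputed under the alternatives kept their direction and their side of the threshold, 40 lost the call, 7 gained it and 16 changed sign. The count of members past the adjusted threshold stayed within 1.5 times in every alternative: without a library it was 8 to 9 between the untreated lines, 7 to 8 between the treated lines, 4 to 6 for H2O2 in floxed, 5 to 7 in TβRII-/- cells and 2 to 3 for the difference of the effects. Counts past the study's limits moved more, since they turn on both 1.5-fold and a p under 0.01. Without a library they were 0 to 3, 2 to 4, 1 to 2 and 1 to 2 in the first 4 comparisons. Between the treated lines Fosb missed the limit on p, not on fold, without floxed replicate 1 (log2 0.77) or 2 (0.65). The same held without replicate 2 of the treated TβRII-/- cells (0.68). For H2O2 in floxed cells the count was 2 with DESeq2's size factors, with DESeq2 and with summed transcripts, and in TβRII-/- cells it was 1 with only the groups compared. No called change reversed. The sign changes were those of Fos in the difference of effects (-0.029 with summed transcripts, adjusted p 0.965; -0.069 to 0.086 without a library), of Fosb (-0.20 to 0.19) and Jund (-0.14 to 0.16) for H2O2 in TβRII-/- cells, and of Ier3 (-0.065 to 0.11) and Jund (-0.038 to 0.26) in the difference of effects; the cause was not tested. Same-numbered libraries did not deviate together (correlations -0.10 to 0.06), and with the replicate block the members past the threshold were 9, 7, 5, 7 and 2; the call lost was Ier3 between the treated lines (-0.18, edgeR adjusted p = 0.0537). Fosb, at 22 to 67 counts per library, is the member most limited by depth.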
